A study of Mus musculus with 5 samples.

Results

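The genes described here are 36 genes of oxygen sensing and sugar breakdown: the subunits of the hypoxia-inducible factors (HIFs), the enzymes that mark them for degradation, a set of their target genes, and the transporters and enzymes of glycolysis. They were taken as the rows of the deposited expression table whose gene symbol is on this list, which are 36 of 45706 rows. All but Ankrd37 had enough signal to be tested, so 35 of the 15912 genes tested belong to the list. Among them the transcript of Epas1, which encodes HIF-2α, was 5.10-fold higher at involution day 6. There it was the most abundant of the 36 per kb of merged exon, a rank that depends on the length used. Ndrg1 and Pfkfb3 were also higher, by 1.52-fold and 1.55-fold, and Ddit4 was 1.97-fold lower. Of the 17 glycolytic enzymes, 16 did not pass the test and 1, or 5.88%, was higher, beside 6.65% of all genes tested. Of the 17, 14 differed by less than 0.5 on the log2 scale, as did 77.3% of all genes tested.

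RNA was sequenced from PDGFRa+ cells sorted from the 4th and 5th mammary glands of Balb/c mice, with 3 libraries from glands at involution day 6, which is 6 days after weaning, and 2 from nulliparous glands. Both groups share the strain, the glands, the sort and the RNA preparation, and the labels name no genetic change or treatment. By the series' design text all 5 are biological replicates. The groups differ in pregnancy and lactation as well as in involution, and these cannot be told apart. PDGFRa is a growth factor receptor on the surface of fibroblasts, the cells that make the connective tissue of the gland. Involution is the regression of the lactating gland that weaning sets off, in which milk-secreting cells are lost and the stroma is rebuilt.

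A HIF is a pair of proteins, an unstable α subunit (HIF-1α, HIF-2α or HIF-3α) and the stable partner ARNT. With oxygen present, prolyl hydroxylases of the EGLN family modify the α subunit, the VHL protein binds it, and it is destroyed. When oxygen is short the α subunit persists, and the pair binds short DNA elements beside genes for blood vessel growth, glucose uptake and glycolysis. The pathway is thus set largely at the level of protein, which these RNA data do not measure. In bulk RNA of sorted cells, fewer cells that express a gene and less of its RNA per cell cannot be told apart.

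Values are the deposited log2 values, taken to be log2(scaled count + offset) with an offset of about 11.8, so that a row without reads stands near 3.57 and differences of weakly expressed genes are understated. Differences are involution day 6 minus nulliparous, given as log2 difference ± SE of limma's moderated test. Its p-values were adjusted by the Benjamini-Hochberg method over all 15912 genes, with a threshold of 0.05. Counts of list genes and markers at an unadjusted p under 0.05 are given without the share of all 15912 genes at that level. No excess should be read from those counts. Unlogged totals without the offset came to 43000000, 42600000 and 41000000 in involution replicates 1 to 3 and to 37600000 and 38900000 in nulliparous replicates 1 and 2. A second principal component, holding 25.9% of the variance, set libraries of the same group apart, at 31.4, 4.1 and -28.7 in the involution replicates and at 19.6 and -26.4 in the nulliparous ones.

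Of the 35 genes, 3 were higher at involution day 6, which is 8.57%, beside 6.65% of all genes tested. One gene, or 2.86%, was lower, beside 4.66% of all genes. Without nulliparous replicate 1 the count of higher genes was 1, and without involution replicate 3 or nulliparous replicate 2 the count of lower genes was 2. The groups did not overlap for 9 of the 35 genes in the higher direction, or 25.7%, beside 21.9% of all genes. In the lower direction 7 did not overlap, or 20.0%, beside 25.1% of all genes. These shares are near those of all genes, so the list as a whole did not stand apart by its counts. Its median difference was -0.00 and its median absolute difference 0.16, beside -0.03 and 0.23 over all genes. Differences under 0.5 in size made up 77.1% of the list and 77.3% of all genes.

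**Figure D1:**
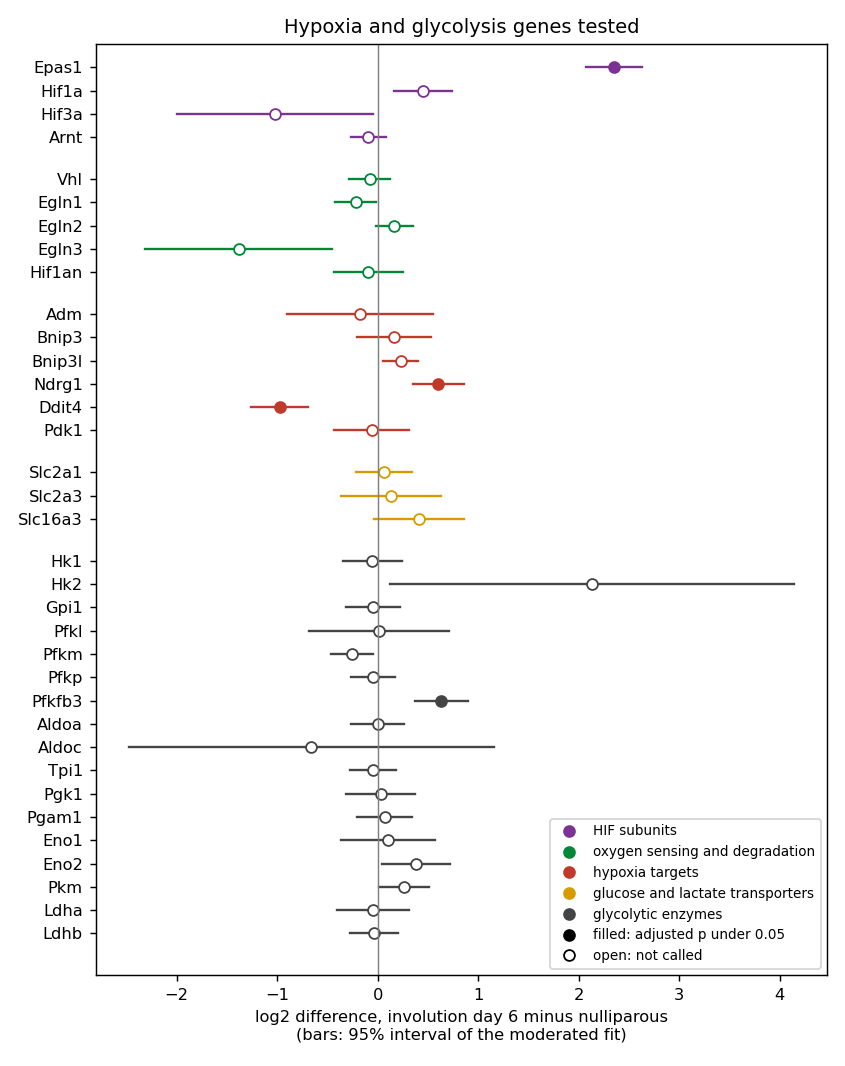
Log2 difference between involution day 6 and nulliparous glands for the 35 tested genes (x axis, involution day 6 minus nulliparous), grouped by role. Points are estimates of the moderated fit over 3 and 2 libraries, bars are 95% intervals, and filled points passed an adjusted p of 0.05. Epas1 stands at 2.35, and Hk2 and Aldoc have the widest bars. The row labelled Eno1 is the one that the annotation names Eno1b.

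The DNA element that HIFs bind has the core ACGTG or GCGTG, searched on both strands in the 250 bases before the start of transcription in RefSeq's promoters of GRCm38.p6. Promoters were listed under the symbol and identifier of 31 of the 36 genes. At least 1 promoter held the core in 26 of these 31 genes, or 83.9%. Of all genes with a listed promoter, 11226 of 27025 held it, or 41.5%. Counted by promoter, 33 of 43 held it, or 76.7%, against 12679 of 32851 promoters of all genes, or 38.6%, where listed promoters of a gene can overlap. The promoters of these genes are richer in G and C, with a median of 60.4% against 52.4% for all genes. Among all promoters with a G and C content of at least 60.4%, 64.1% held the core. Promoters of the list below its own median lie outside that range, so 64.1% is not a matched background. The 5 genes with no core in their listed promoters were Eno2, Gpi1, Hif1an, Tpi1 and Vhl. A match shows these letters in this window and not that a factor binds there.

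The promoters of 5 genes are shown, with each core in capitals, which reads CACGT or CACGC where it lies on the other strand. Pfkfb3 and Ddit4 are the genes past the test that have a listed promoter, with a higher and a lower transcript at involution day 6. Bnip3, Ldha and Pgk1 are textbook HIF targets whose transcripts did not pass. The table lists a second promoter each for Pfkfb3 and Ldha, which is not shown and holds 3 cores in Pfkfb3 and 1 in Ldha. The promoters of Bnip3 and Ldha printed here hold 5 cores each, where the palindrome CACGTG counts as 1 core on each strand.
Pfkfb3 promoter, chr2:11553930-11554179, minus strand: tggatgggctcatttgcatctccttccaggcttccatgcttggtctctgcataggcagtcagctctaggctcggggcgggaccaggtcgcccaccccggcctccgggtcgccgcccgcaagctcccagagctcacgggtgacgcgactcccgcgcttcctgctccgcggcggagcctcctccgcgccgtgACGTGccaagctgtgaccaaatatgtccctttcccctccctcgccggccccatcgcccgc
Ddit4 promoter, chr10:59951771-59952020, minus strand: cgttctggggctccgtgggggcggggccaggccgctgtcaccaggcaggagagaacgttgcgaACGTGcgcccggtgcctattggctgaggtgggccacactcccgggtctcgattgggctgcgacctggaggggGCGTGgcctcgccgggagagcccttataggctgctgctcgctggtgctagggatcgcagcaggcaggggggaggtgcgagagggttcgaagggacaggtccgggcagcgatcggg
Bnip3 promoter, chr7:138909507-138909756, minus strand: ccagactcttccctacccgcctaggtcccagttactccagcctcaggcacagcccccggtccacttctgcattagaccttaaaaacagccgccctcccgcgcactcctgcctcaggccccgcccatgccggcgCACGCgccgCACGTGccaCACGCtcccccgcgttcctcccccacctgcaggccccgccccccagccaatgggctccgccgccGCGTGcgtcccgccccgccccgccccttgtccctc
Ldha promoter, chr7:46845554-46845803, plus strand: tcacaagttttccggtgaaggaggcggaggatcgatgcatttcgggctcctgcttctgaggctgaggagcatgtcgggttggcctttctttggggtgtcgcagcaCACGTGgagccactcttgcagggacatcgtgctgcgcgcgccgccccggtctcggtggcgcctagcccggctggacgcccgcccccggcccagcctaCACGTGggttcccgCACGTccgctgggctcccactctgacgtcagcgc
Pgk1 promoter, chrX:106186850-106187099, plus strand: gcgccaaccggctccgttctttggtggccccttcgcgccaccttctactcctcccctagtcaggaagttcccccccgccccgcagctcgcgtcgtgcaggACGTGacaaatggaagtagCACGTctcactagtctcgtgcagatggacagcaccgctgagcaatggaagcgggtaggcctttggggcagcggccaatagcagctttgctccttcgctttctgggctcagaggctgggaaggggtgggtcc
In the printed promoter of Pfkfb3 the single core begins 60 bases before the start. The cores of Ddit4 lie 187 and 115 bases before it, and those of Pgk1 150 and 131 bases before it. The cores of Bnip3 lie between 117 and 35 bases, and those of the printed Ldha promoter between 145 and 34 bases, before the start. Cores were thus present in promoters of genes that were higher, lower and not called.

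Epas1 encodes HIF-2α, the α subunit best known from blood vessel cells and from the control of erythropoietin. The gene lies at chr17:86753700-86833410 on the plus strand of GRCm38. Its deposited log2 value was 14.56, 14.77 and 14.50 in involution replicates 1 to 3, against 12.33 and 12.18 in nulliparous replicates 1 and 2. Every involution library thus stood above both nulliparous libraries, and the replicates of each group lay close together. Means were 14.61 ± 0.14 at involution day 6 and 12.26 ± 0.11 in nulliparous glands (SD, n = 3 and 2), and Epas1 rose by 2.35 ± 0.11 with a 95% interval of 2.08 to 2.62 and an adjusted p of 0.000941 in limma. Of the 1058 genes higher at involution day 6, 60 differed by at least as much as Epas1, itself included. Of the 1058, 7 had both at least its difference and at least its mean deposited value. Epas1 passed the test in all 13 settings tried, including without each library in turn, with differences of 2.26 to 2.42.

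Epas1 transcripts are abundant in endothelial cells, so endothelial markers are given beside it. None of the 14 endothelial markers passed the test in limma, and 0 had an unadjusted p under 0.05. Their summed scaled counts were 17300, 10600 and 10500 in the involution libraries and 19200 and 12700 in the nulliparous libraries. The sums of the 2 groups overlapped, and the highest was that of nulliparous replicate 1. The most abundant of these markers, Tek, stood at 12.13, 12.17 and 12.47 in involution libraries and 12.18 and 12.67 in nulliparous libraries. Pecam1 stood at 11.08, 9.88 and 9.04 in involution libraries and 11.02 and 9.62 in nulliparous libraries. Tek was thus lowest in replicate 1 of each group, where Pecam1 was highest. Tek alone gave a mean of 4900 scaled counts at involution day 6 and 5570 in nulliparous glands, a large part of the sums. Summed markers of macrophages and other myeloid cells were 17200, 10700 and 6130 at involution day 6 and 5990 and 2940 in nulliparous glands, and the part of endothelial and myeloid cells in the Epas1 difference was not tested.

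Hif1a encodes HIF-1α, the subunit through which most glycolytic genes respond to low oxygen. Its values were 12.50, 12.79 and 12.45 in the involution libraries, against 12.10 and 12.16 in the nulliparous libraries. The groups did not overlap, and the difference of 0.45 ± 0.12 (95% interval 0.16 to 0.73) did not pass in limma, with an adjusted p of 0.0624. Within each library, the log2 ratio of Epas1 to Hif1a was 2.07, 1.98 and 2.05 at involution day 6, against 0.23 and 0.02 in nulliparous glands. This ratio does not depend on the scaling between libraries. It was 3.74-fold higher at involution day 6, with a two-sided exact permutation p of 0.1, the smallest that 3 against 2 libraries allow, and 0.4 after adjustment over the 12 ratios of related genes that were compared. Per kb of exon, Epas1 reached 4480 ± 451 scaled counts in involution libraries and 876 ± 63.9 in nulliparous libraries, beside 1040 ± 138 and 760 ± 23.7 for Hif1a (SD, n = 3 and 2). Epas1 ranked 1st of the 36 genes at involution day 6 and 7th in nulliparous glands by this measure. That rank depends on the length used. Merged exons span 5590 bases in Epas1 and 2911 in Aldoa, which ranked 2nd at involution day 6. Their longest transcripts span 5516 and 1549 bases.

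Arnt, the shared partner of the α subunits, had nearly the same level in all libraries. It stood at 12.44, 12.49 and 12.41 at involution day 6 and at 12.55 and 12.53 in nulliparous glands, a difference of -0.09 ± 0.07 (adjusted p = 0.436 in limma). Its groups did not overlap, and the 95% interval ran from -0.27 to 0.08. Hif3a, whose shorter protein forms are known to restrain the other HIFs, was weakly expressed. Its values were 5.04, 4.57 and 5.88 in the involution libraries, against 6.06 and 6.31 in the nulliparous ones. The groups did not overlap, but involution replicate 3 lay close to the nulliparous libraries. The difference of -1.02 ± 0.40 did not pass in limma (adjusted p = 0.157), and without involution replicate 3 it was -1.38 and passed (adjusted p = 0.0484). With the offset removed it came to -1.37, and per kb Hif3a had 3.97 scaled counts at involution day 6 and 9.11 in nulliparous glands.

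**Figure D2:**
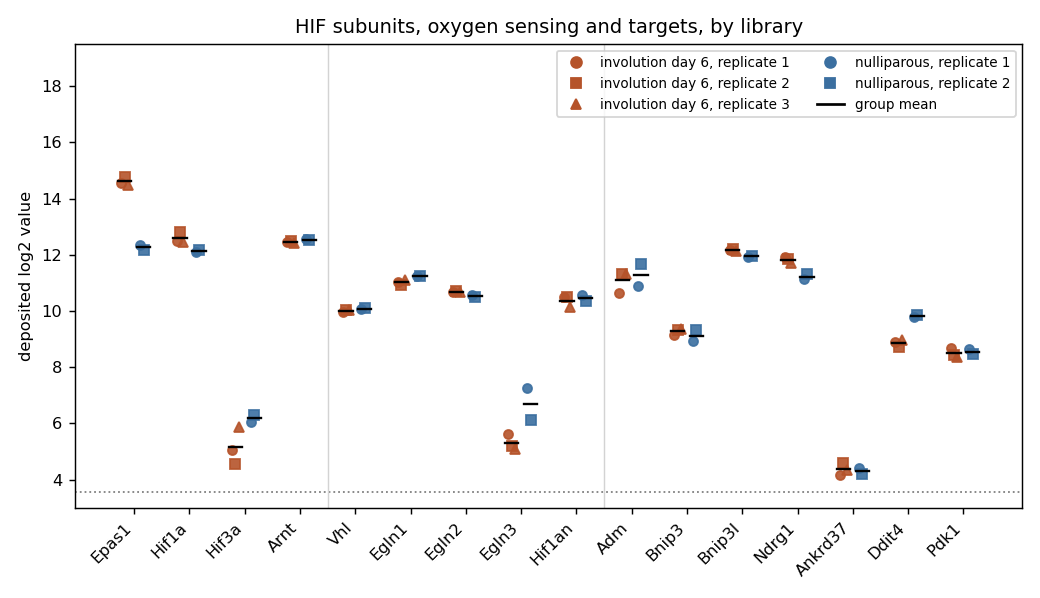
Deposited log2 values (y axis) of the HIF subunits, the oxygen-sensing genes and the HIF targets in each library, with involution day 6 left of nulliparous glands for every gene. Marker shapes give the replicate, black bars the group means and the dotted line the value of a row without reads. The 3 involution points of Epas1 lie above 14.4 and the 2 nulliparous points below 12.4, while Hif3a, Egln3 and Ankrd37 lie nearest the dotted line.

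None of the 5 genes that sense oxygen or degrade the α subunits passed the test in limma, and 2 of them had an unadjusted p under 0.05, both in the lower direction. These were Egln1 and Egln3. Egln1 encodes the main prolyl hydroxylase, PHD2. It stood at 11.02, 10.93 and 11.10 in involution libraries, against 11.25 and 11.23 in nulliparous libraries, a difference of -0.22 ± 0.08 (adjusted p = 0.147). Egln3 encodes PHD3, a hydroxylase that is itself a well-known HIF target. Its values were 5.61, 5.20 and 5.08 in the involution libraries, against 7.27 and 6.103 in the nulliparous libraries. All involution values lay below both nulliparous values, which themselves lay more than 1 log2 unit apart. The difference was -1.38 ± 0.38 (95% interval -2.31 to -0.46, adjusted p = 0.0706 in limma), or -1.68 with the offset removed. Leaving out nulliparous replicate 2 gave -1.97 and an adjusted p of 0.0421, and leaving out nulliparous replicate 1 gave -0.80 and an adjusted p of 0.248.

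Egln2, which encodes PHD1, had small differences in the other direction. Its values were 10.67, 10.71 and 10.67 at involution day 6 and 10.56 and 10.48 in nulliparous glands, a difference of 0.17 ± 0.08 that did not pass in limma (adjusted p = 0.217). The log2 ratio of Egln2 to Egln1 was -0.35, -0.22 and -0.44 at involution day 6, against -0.70 and -0.75 in nulliparous glands. That of Egln3 to Egln1 was -5.76, -6.22 and -6.57 at involution day 6, against -4.08 and -5.36 in nulliparous glands. Neither ratio overlapped between the groups. Each had the smallest exact permutation p of 0.1, and 0.4 after adjustment over the 12 ratios. Vhl, the substrate receptor of the degrading ligase, differed by -0.08 ± 0.09 (95% interval -0.29 to 0.12) and did not overlap between the groups. Hif1an, which encodes an asparagine hydroxylase that blocks the binding of coactivators, differed by -0.09 ± 0.14. Neither passed in limma, with adjusted p of 0.575 and 0.711.

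Among the HIF targets, 6 of 7 were tested, of which 1 was higher, 1 lower and 4 did not pass. The 2 shares were 16.7% each, beside 6.65% higher and 4.66% lower among all genes tested. Ddit4 encodes REDD1, an inhibitor of mTORC1 signalling that responds to hypoxia, glucocorticoids and other stress. The gene lies at chr10:59949669-59951834 on the minus strand. Its values were 8.89, 8.71 and 8.95 in involution libraries, against 9.78 and 9.87 in nulliparous libraries. All involution values lay at least 0.8 below the nulliparous ones. Ddit4 fell by 0.97 ± 0.12 on the log2 scale (95% interval -1.26 to -0.69), with an adjusted p of 0.00671 in limma. It passed in all 13 settings, including without each library in turn. Nr4a1 fell by 1.51 on the log2 scale (adjusted p = 0.0149) and was the one gene of 16 dissociation stress markers to pass. It did not pass without involution replicate 2 or nulliparous replicate 2 (adjusted p = 0.0597 or 0.0568). The summed counts of these 16 overlapped between the groups, at 889000, 760000 and 969000 at involution day 6 and 535000 and 1130000 in nulliparous glands, and their part in the Ddit4 difference was not tested.

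Ndrg1 encodes a cytoplasmic protein linked to differentiation and is induced by hypoxia in many cell types. The gene lies at chr15:66929318-66969640 on the minus strand. Values were 11.94, 11.84 and 11.71 at involution day 6 and 11.12 and 11.33 in nulliparous glands. The groups did not overlap, and Ndrg1 rose by 0.60 ± 0.10 (95% interval 0.35 to 0.86, adjusted p = 0.0194 in limma). The call was lost without involution replicate 1, involution replicate 2 or nulliparous replicate 1, with adjusted p of 0.0545, 0.0728 and 0.0987.

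The mitophagy receptor genes Bnip3 and Bnip3l are both HIF targets. Bnip3l stood at 12.17, 12.20 and 12.15 in involution libraries, against 11.91 and 11.97 in nulliparous libraries. These values did not overlap, and the difference of 0.23 ± 0.07 (95% interval 0.06 to 0.40) missed the threshold in limma, with an adjusted p of 0.0936. Bnip3 stood at 9.15, 9.32 and 9.35 in involution libraries and 8.91 and 9.31 in nulliparous libraries, with overlap. Adm, which encodes the vasodilator peptide adrenomedullin, was among the most abundant of the 36 genes per kb and varied within both groups. Its values were 10.64, 11.33 and 11.33 in involution libraries and 10.87 and 11.68 in nulliparous libraries. Its difference of -0.17 ± 0.30 has a 95% interval of -0.90 to 0.55, so a change of nearly 1 log2 unit downward lies within it. Pdk1, a kinase that shuts off pyruvate dehydrogenase, differed by -0.06 ± 0.15 (adjusted p = 0.821). Ankrd37 stood near the value of a row without reads, at 4.16, 4.58 and 4.36 in involution libraries and 4.40 and 4.19 in nulliparous libraries.

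Glucose enters cells through Slc2a1 and Slc2a3 (GLUT1 and GLUT3), and lactate leaves through Slc16a3 (MCT4). None of the 3 passed the test in limma, and 0 had an unadjusted p under 0.05. Slc2a1 differed by 0.06 ± 0.12, with a 95% interval of -0.22 to 0.34. Slc2a3 differed by 0.13 ± 0.21 (adjusted p = 0.720). Per kb, Slc2a1 had 194 ± 16.8 scaled counts at involution day 6 and 185 ± 9.45 in nulliparous glands, several times those of Slc2a3, at 52.0 ± 10.6 and 47.2 ± 9.09. Slc16a3 was the weakest of the 3 per kb and did not overlap between groups, with log2 values of 6.99, 6.96 and 7.20 in involution libraries, against 6.75 and 6.53 in nulliparous libraries. Its difference of 0.41 ± 0.19 has a 95% interval of -0.04 to 0.86 (adjusted p = 0.208).

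Of the 17 glycolytic enzymes, 1 was higher, or 5.88%, 0 were lower and 16 did not pass in limma. Of all genes tested, 6.65% were higher and 4.66% lower. An unadjusted p under 0.05 was found for 4 enzymes in the higher and 1 in the lower direction. The share of all genes at that level is not given, so these counts show no excess. The median difference was -0.00 and the median absolute difference 0.05. Aldoa, the main aldolase outside liver and brain, was the most abundant enzyme per kb, at 3640 ± 24.9 scaled counts at involution day 6 and 3660 ± 544 in nulliparous glands. Its log2 values were 13.38, 13.37 and 13.36 in involution libraries and 13.52 and 13.22 in nulliparous libraries. The involution libraries lay between the nulliparous ones, and the 95% interval of the difference ran from -0.26 to 0.26. Ldha, which turns pyruvate into lactate, followed with 2110 ± 148 per kb at involution day 6 and 2200 ± 490 in nulliparous glands. Its difference was -0.05 with an interval of -0.40 to 0.31. Ldhb, which favours the reverse reaction, differed by -0.04 ± 0.10, and the log2 ratio of Ldhb to Ldha overlapped between groups, at -2.32, -2.38 and -2.70 in involution libraries and -2.65 and -2.30 in nulliparous libraries.

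**Figure D3:**
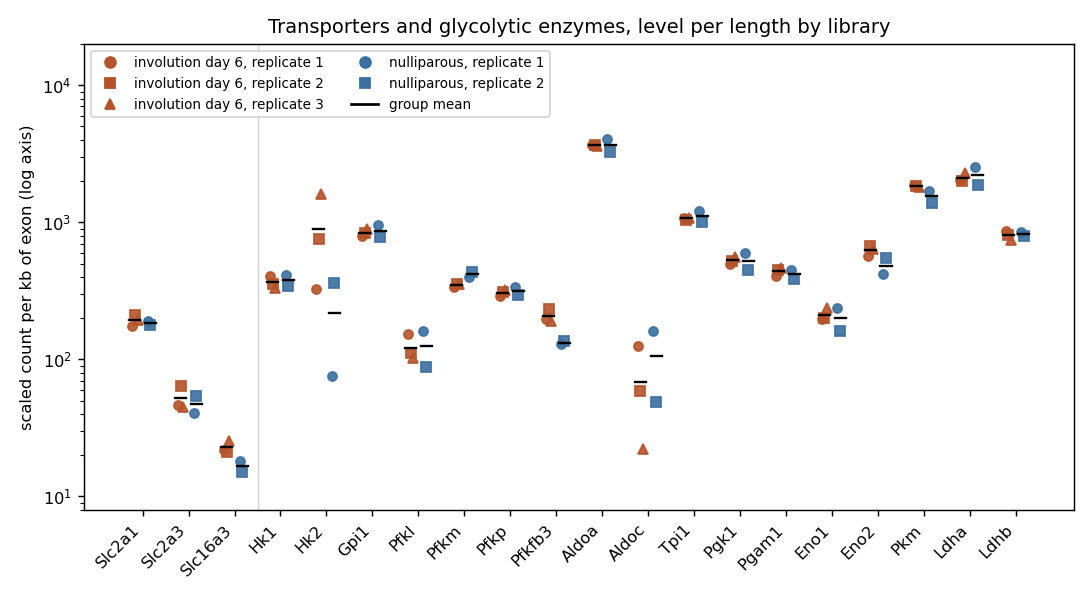
Scaled counts per kb of exon (y axis, log scale) of the transporters and glycolytic enzymes in each library, with involution day 6 left of nulliparous glands for every gene. Marker shapes give the replicate and black bars the group means. Aldoa, Ldha and Pkm lie highest, the points of the groups overlap for most genes, and Hk2 and Aldoc spread widely within each group. The column Eno1 is the row that the annotation names Eno1b.

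Pfkfb3 was the enzyme that passed. It makes fructose 2,6-bisphosphate, the activator of phosphofructokinase, and is a HIF target. The gene lies at chr2:11471433-11554077 on the minus strand, and its upstream sequence is printed above. Values were 10.55, 10.79 and 10.50 in involution libraries, against 9.95 and 10.01 in nulliparous libraries. Every involution library stood above both nulliparous ones. Pfkfb3 rose by 0.63 ± 0.11 (95% interval 0.37 to 0.90), with an adjusted p of 0.0193 in limma. Without nulliparous replicate 1 or 2 the adjusted p was 0.0975 or 0.0808, and the call was lost.

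The phosphofructokinase subunits that it acts on did not pass. Per kb, Pfkm had 348 ± 7.77 scaled counts at involution day 6 and 417 ± 27.2 in nulliparous glands, and Pfkp had 306 ± 14.9 and 317 ± 29.2 in the same order. Both stood above Pfkl, with 122 ± 26.4 at involution day 6 and 124 ± 52.5 in nulliparous glands. The ratios of Pfkp and Pfkm to Pfkl overlapped between groups (exact permutation p of 0.8 and 0.7). Pfkm stood at 10.16, 10.21 and 10.22 at involution day 6 and 10.39 and 10.52 in nulliparous glands. Its groups did not overlap, with a difference of -0.26 ± 0.09 and an adjusted p of 0.111 in limma. Pfkp differed by -0.05 ± 0.09. Pfkl varied in both groups, at 9.999, 9.56 and 9.43 in involution libraries and 10.09 and 9.22 in nulliparous libraries, with a difference of 0.01 ± 0.29.

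Hexokinases trap glucose in the cell as its phosphate. Hk2, the inducible form, had the second largest difference of the list, and its spread within groups was the largest. Its values were 10.93, 12.13 and 13.24 in involution replicates 1 to 3, against 8.87 and 11.08 in nulliparous replicates 1 and 2. The groups overlapped, since involution replicate 1 stood below nulliparous replicate 2. The difference of 2.13 ± 0.83 (95% interval 0.12 to 4.14) did not pass in limma, with an adjusted p of 0.155. It was 1.02 without nulliparous replicate 1 and 3.24 without nulliparous replicate 2, and it passed in neither case. Hk1, the constitutive form, stood nearly level in the same libraries, with a difference of -0.05 ± 0.12. The log2 ratio of Hk2 to Hk1 was -0.84, 0.56 and 1.78 at involution day 6 and -2.94 and -0.45 in nulliparous glands (exact permutation p = 0.3). Across the 5 libraries it thus spanned more than 4 log2 units, and it was highest in involution replicate 3 and lowest in nulliparous replicate 1.

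Aldoc, the aldolase typical of brain, varied nearly as much, at 8.72, 7.66 and 6.40 in involution replicates 1 to 3 and at 9.08 and 7.42 in nulliparous replicates 1 and 2. Replicate 1 of each group was highest for Aldoc and lowest for Hk2. The difference of Aldoc was -0.66 ± 0.75 (95% interval -2.48 to 1.16, adjusted p = 0.612 in limma). Markers of other cell types also varied between replicates of the same group. Summed epithelial markers were 63100, 25500 and 12900 scaled counts in involution replicates 1 to 3 and 40900 and 14900 in nulliparous replicates 1 and 2. They were thus highest in replicate 1 of each group, as were the endothelial and myeloid sums given above. Their part in the spread of Hk2 and Aldoc was not tested.

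**Figure D4:**
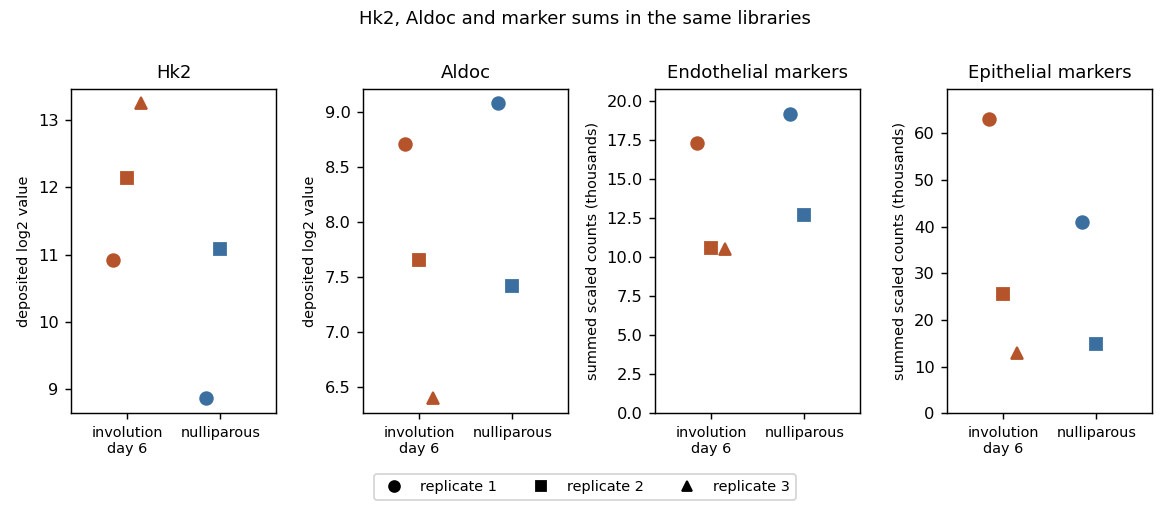
Deposited log2 values of Hk2 and Aldoc and summed scaled counts of 14 endothelial and 18 epithelial markers in the same 5 libraries, with involution day 6 left of nulliparous glands in each panel. Marker shapes give the replicate. In both groups replicate 1 is lowest for Hk2 and highest for Aldoc and for both marker sums.

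The residual SD of the fit was over 0.4 for 6 of the 35 genes, namely Hk2, Aldoc, Hif3a, Egln3, Adm and Pfkl. Its median was 0.138 over the list, beside 0.159 over all genes tested. The enzymes that follow had narrow intervals. Tpi1, the isomerase of the triose phosphates, differed by -0.04 ± 0.09, with levels of 1070 ± 23.6 per kb at involution day 6 and 1110 ± 133 in nulliparous glands. Pgk1, the first enzyme of the pathway to make ATP, differed by 0.03 ± 0.14, with a 95% interval of -0.31 to 0.37. Pgam1, a phosphoglycerate mutase, differed by 0.07 ± 0.11, and Gpi1, which converts glucose phosphate to fructose phosphate, by -0.05 ± 0.11. None of the 4 passed in limma.

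Pkm, which encodes the pyruvate kinase of most tissues, and Eno2, an enolase best known from neurons, did not overlap between groups but did not pass. Pkm stood at 13.19, 13.18 and 13.15 in involution libraries, against 13.06 and 12.77 in nulliparous libraries, a difference of 0.26 ± 0.10 (adjusted p = 0.162 in limma). Per kb it had 1840 ± 26.6 scaled counts at involution day 6 and 1550 ± 218 in nulliparous glands. The table does not separate its M1 and M2 splice forms. Eno2 stood at 11.38, 11.63 and 11.56 in involution libraries, against 10.95 and 11.34 in nulliparous libraries, a difference of 0.38 ± 0.14 (adjusted p = 0.136).

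The row labelled Eno1 in the deposited table carries the identifier that GENCODE M21 names Eno1b, a nearly identical gene copy on another chromosome. Of the 50-base stretches of its longest transcript, 75.3% also occur in transcripts of Eno1, so reads could be split between the copies by the counting, and both rows are uncertain. The labelled row differed by 0.10 ± 0.19 (adjusted p = 0.767 in limma). The row that GENCODE names Eno1, which has no symbol in the table, ENSMUSG00000063524, stood at 10.96, 10.86 and 10.93 in involution libraries and 11.08 and 10.64 in nulliparous libraries. Its difference was 0.05 ± 0.14 with a 95% interval of -0.28 to 0.38. Neither enolase row differed beyond the spread. The same limit touches other genes of the list, since 11 of the 36 share at least 3% of their 50-base stretches with transcripts of other genes, led, after the row labelled Eno1, by Pgk1 with 68.0%, Pgam1 with 41.5% and Pkm with 34.4%. Epas1, Ddit4, Hk2 and Egln3 share none, and Ndrg1 and Pfkfb3 share 0.15% and 0.61%. The 11 measured copies that carry the names of Pgk1, Ldha, Aldoa, Tpi1, Pgam1 and Gapdh reached at most 4.02, near the value of a row without reads. Copies under other names, such as those that share most with Pkm and Ldhb, were not examined.

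Other genes of these pathways were taken from lists of 117 symbols, of which 104 were tested. Of these, 6 were higher, or 5.77%, 5 lower, or 4.81%, and 93 did not pass. Of all genes tested, 6.65% were higher and 4.66% lower. The count of higher genes was 3 without nulliparous replicate 1. The count of lower genes was 1 or 0 without involution replicate 1 or 2, and 2 or 3 without nulliparous replicate 1 or 2. Among 44 other hypoxia-responsive genes, 5 were higher, or 11.4%, and 2 lower, or 4.55%, with a median difference of -0.00. Lox, which encodes the collagen cross-linking enzyme lysyl oxidase, was 3.63-fold higher (adjusted p = 0.00515 in limma). Its values were 16.23, 16.33 and 15.85 in involution libraries, against 14.07 and 14.47 in nulliparous libraries. Mif, a cytokine gene, was 2.74-fold higher (adjusted p = 0.00272), and Plin2, which coats lipid droplets, 1.76-fold higher (adjusted p = 0.00637). Slc6a8, the creatine transporter gene, was 1.98-fold higher (adjusted p = 0.00812). Without each library in turn, Lox, Mif and Plin2 passed every time. Slc6a8 failed without nulliparous replicate 1 (adjusted p = 0.0556).

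Vegfa, which encodes the main growth factor of blood vessels and is a classic HIF target, was lower. Its values were 11.73, 11.59 and 11.76 in involution libraries, against 12.50 and 13.03 in nulliparous libraries. The groups did not overlap, and Vegfa fell by 1.07 ± 0.16 on the log2 scale (adjusted p = 0.0124 in limma). P4ha1, a collagen prolyl hydroxylase gene, was 1.43-fold lower (adjusted p = 0.0471). Vegfa missed the threshold without involution replicate 2 (adjusted p = 0.0503), and P4ha1 passed in 1 of the 5 cases, without involution replicate 3. Both were named after their values were seen. The most abundant gene of this list, Egr1, stood at 17.54, 17.34 and 17.57 in involution libraries and 16.91 and 17.70 in nulliparous libraries, with overlap.

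Of 17 further components of the HIF machinery, 1 was higher and 1 lower, or 5.88% each, beside 6.65% and 4.66% of all genes tested. Arnt2, a weakly expressed relative of Arnt, was 2.45-fold higher (adjusted p = 0.0347 in limma), with values of 6.26, 6.78 and 6.32 in involution libraries, against 4.90 and 5.42 in nulliparous libraries. Arntl, which encodes the circadian factor BMAL1 of the same protein family, fell by 0.70 ± 0.15 (adjusted p = 0.0342). Neither call held without any 1 of the 5 libraries, with adjusted p of 0.0564 to 0.155. The most abundant, the chaperone gene Hsp90ab1, differed by -0.59 ± 0.18 and did not pass (adjusted p = 0.0897).

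Of 23 other glycolysis genes tested, 0 were higher and 1, or 4.35%, was lower in limma, beside 6.65% and 4.66% of all genes tested. An unadjusted p under 0.05 was found for 1 in the higher and 3 in the lower direction. The one that passed was Adpgk, an ADP-dependent glucokinase gene, which fell by 0.55 ± 0.09 (adjusted p = 0.0176). Its call was lost without involution replicate 1 or 2 or nulliparous replicate 1, with adjusted p of 0.0504 to 0.0937. Gapdh, the enzyme between Tpi1 and Pgk1, was named after its values were seen. It stood at 11.70, 11.57 and 11.76 in involution libraries and 11.72 and 11.41 in nulliparous libraries, with overlap. Bsg, which encodes the partner protein of lactate transporters, was the most abundant of these genes and differed by 0.17 ± 0.10 (adjusted p = 0.329).

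None of 13 genes for pyruvate entry into mitochondria passed in limma, and 0 had an unadjusted p under 0.05. The most abundant, Pdha1, a subunit of pyruvate dehydrogenase, differed by 0.02 ± 0.07. Of 7 pentose phosphate genes, Rpia, an isomerase of the branch that makes ribose, was 1.46-fold lower (adjusted p = 0.0369) and the other 6 did not pass. Rpia passed in 1 of the 5 cases that leave out a library, without nulliparous replicate 2. The most abundant of these, Tkt, the transketolase gene, differed by -0.32 ± 0.12 (adjusted p = 0.154).

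The sort was checked on its own markers and on those of other cells. Pdgfra stood at 16.09, 15.88 and 15.69 in involution libraries and 15.87 and 15.93 in nulliparous libraries. None of 8 fibroblast markers passed in limma, of which 2 had an unadjusted p under 0.05. The groups did not overlap for 5 of the 8 in the higher direction and for 0 in the lower, beside 21.9% and 25.1% of all genes tested. One of these 5, Col1a1, was 1.5-fold higher, and the fit gave it a prior SD of 0.83, beside a residual SD of 0.21. Fibroblast markers, led by Col3a1, summed to 4380000 to 5710000 scaled counts at involution day 6 and 3970000 to 4130000 in nulliparous glands. Of 18 epithelial markers, 1 passed, the milk protein gene Wap, with 4.50 ± 0.66 (adjusted p = 0.0118). The most abundant, the casein gene Csn2, ranged from 12.22 to 14.90 at involution day 6 and from 7.72 to 12.66 in nulliparous glands. These milk protein genes do not stand for the list, whose median difference was -1.15, with a range from -1.99 for Krt19 to 4.50 for Wap. Of 15 myeloid markers, Lyz2 and Adgre1 were higher, by 2.12 ± 0.48 and 1.64 ± 0.36 (adjusted p = 0.0398 and 0.0365). Each passed in 1 of the 5 cases that leave out a library, without involution replicate 3, with adjusted p up to 0.171 and 0.163 in the others. Without nulliparous replicate 1 or 2, Wap did not pass (adjusted p = 0.0738 or 0.0549), nor did the adipocyte marker Cfd (adjusted p = 0.0797 or 0.0606). Of 9 lymphocyte markers, Jchain of plasma cells was higher by 4.88 ± 0.57 (adjusted p = 0.00637), with list sums of 1750 to 5170 at involution day 6 and 382 to 393 in nulliparous glands. None of 10 pericyte and smooth muscle markers, led by Abcc9, passed, and 3 had an unadjusted p under 0.05. Their sums were 5360 to 10500 at involution day 6 and 12500 to 16500 in nulliparous glands. Of 10 adipocyte markers, led by Fabp4, 4 were tested and Cfd fell by 1.91 ± 0.29 (adjusted p = 0.0125), while Adipoq stayed near the value of a row without reads. The adipocyte sums were 4400 to 7900 at involution day 6 and 7400 to 10400 in nulliparous glands, and no erythroid marker had enough signal to be tested. The part of these cells in the differences above was not tested.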

How the data were processed

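RNA sequencing was analysed in 5 libraries, 3 of involution day 6 and 2 nulliparous. Reads were aligned with STAR 2.4.2a to GRCm38 after base calling with bcl2fastq, per the submitters' processing notes. The TruSeq V2 kit made the libraries from total RNA, per the labels' protocols. The sources used here do not name the counter, annotation, scaling or offset. The authors deposited log2 values for 45706 rows, of which 17395 held no reads in any library and stood near 3.57, so each value was taken as log2(scaled count + offset), with an offset of about 11.8. Whole reads were not recovered, and sampling error shows only in the spread between libraries.

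Groups were compared with limma 3.58.1 in R 4.3.3 on these log2 values, with a moderated two-sided test, a prior variance that followed the mean and Benjamini-Hochberg adjustment over 15912 genes whose mean was at least 4.45, which is 10 units above the offset. Related genes were compared by their log2 ratio within a library, with the offset removed and 1 added, by two-sided exact permutation tests adjusted over 12 ratios. Levels per kb are unlogged values minus the offset over the merged exon length of GENCODE M21, whose coordinates on GRCm38 are given 1-based. Shared stretches of 50 bases were counted in GENCODE M21 transcripts, whatever the read length, which the labels do not give. Promoter sequences are RefSeq's, of GRCm38.p6. All 36 genes of the list are named. Of each other pathway list the text names up to 4 genes with the smallest p among those past the threshold and the most abundant one, and of each marker list the same, with abundance taken from the deposited values. Pecam1 and Adipoq were named after their values were seen. One other pathway gene is not reported here. The member genes, lists and tests were chosen with earlier results of these data known. Marker lists cover fibroblasts, epithelium, myeloid cells, endothelium, pericytes, adipocytes, lymphocytes, erythroid cells and dissociation stress. Alternatives were other filters, no variance trend, median centring, quantile normalization, removal of the offset, a replicate block and leaving out each library. The test was also run on simulated data.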

Additional observations from a re-analysis of the deposited data

How the results depend on the processing

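The counts of 1058 genes higher and 742 lower, of 3 and 1 genes of the list, and of 6 and 5 other pathway genes stayed within 1.5 times under a stricter filter, median centring, quantile normalization and removal of the offset. Without the filter on low values, which raises the number of genes tested to 28311, they were 322 and 235, 1 and 1, and 3 and 0, the last with 5646 of all genes at an unadjusted p under 0.05 in limma. Without the variance trend they were 686 and 482, 1 and 1, and 5 and 2, and the cause was not tested. Leaving out 1 library gave 296 (without nulliparous replicate 1) to 786 genes higher and 208 to 483 lower, 1 to 3 and 1 to 2 of the list, and 3 to 6 and 0 to 4 other pathway genes. With the replicate block there were 1817 and 1449 genes, 6 and 3 of the list, and 13 and 14 other pathway genes. The labels share replicate numbers 1 and 2, whose deviations from their group means correlated at 0.577 and 0.0628 across genes. With 2 nulliparous libraries these deviations mirror each other, so the 2 correlations are not separate checks. They cannot decide whether the libraries are paired. The block gained Hif1a (0.51), Hif3a (-1.38), Egln3 (-1.28), Hk2 (1.56) and Eno2 (0.36). Epas1 and Ddit4 passed in all 13 settings, Pfkfb3 in 9 and Ndrg1 in 8. No gene of the list that was past the threshold changed sign in any of these settings, and signs were not compared over all genes. With 3 and 2 libraries, changes of variable genes such as Hk2 and Adm could not be resolved in the main fit. For Hk2 this held even at an estimate of 2.13 on the log2 scale.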
